A study of Arabidopsis thaliana with 24 samples.

Results

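The comparison concerns how the morning-to-evening change of each transcript differed between ordinary indoor long days and indoor long days to which far-red light and a daily cycle of temperature were added. For every gene the interaction was the log2 change from zeitgeber time 4 (ZT4, morning) to ZT16 (evening) in LD+FR+TEMP minus the same change in Lab LD. The 12 libraries used, of 24 in the series, were chosen by their titles and form 4 groups of 3 replicates, Lab LD and LD+FR+TEMP at ZT4 and at ZT16. All 4 groups were whole Arabidopsis thaliana seedlings of 14 days on soil, flash-frozen at harvest. The labels name no genotype, so none is given here. Lab LD is described in the labels only as the normal laboratory long day. LD+FR+TEMP added weak light from a 730 nm diode to white fluorescent light until the red to far-red ratio was 1. Its temperature was ramped between 15.8 and 22.8 °C, passing 17.9 °C at ZT4, 19.8 °C at ZT15 and 18.3 °C at ZT17. Far-red light and temperature were changed together, so their effects cannot be told apart.

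Arabidopsis flowers sooner in long days because light in the late afternoon stabilises CONSTANS (CO), a transcription factor that switches on FT in leaf veins. FT protein then moves to the shoot tip as the flowering signal. The circadian clock sets the hours at which such genes are read, phytochromes sense how much red light there is relative to far-red and act through the PIF factors, and warmth reaches the same network through PIF4 and ELF3. HY5 and its partners drive pigment and photoprotection genes in the light.

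Polyadenylated RNA was sequenced from short tags close to the 3′ ends of transcripts. Total counts ran from 12069812 to 16089156 per library. Levels are given as CPM, the count scaled by TMM to a common library total, which compare a gene between libraries but not different genes with each other. Sets of 3 values are replicates 1, 2 and 3, with the morning set before the evening set. The first principal component (44.0% of the variance) separated the times and the second (18.8%) the settings. Within groups, the mean correlation of a library's log2 CPM with the other libraries of its group was 0.974 to 0.975 in Lab LD ZT4 and 0.983 to 0.989 in the other groups. The photosystem and Rubisco genes, which mark green shoot tissue, summed to 71322 to 166627 CPM per library, while floral organ markers summed to no more than 2.65 CPM. The labels do not say whether replicates were separate plantings, so p-values measure only the spread between these samples.

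Of 18806 loci tested, 613 had an interaction past an adjusted p of 0.05 (3.26%) in edgeR's quasi-likelihood test. The interaction was higher than 0 for 282 loci (1.5%), which means a larger rise or a smaller fall toward evening in LD+FR+TEMP. It was lower than 0 for 331 loci (1.76%). The size was at least 2-fold for 150 of the higher and 117 of the lower loci, and the median over all loci tested was 0.015. In whole seedlings, fewer cells of a type and less RNA per cell cannot be told apart, which holds for every value below. The count was 347 to 831 when single libraries were left out, and 285 of the 613 loci were called in all 12 such fits. It moved over 1.5 times without Lab LD ZT16 replicate 1 (347) or 2 (378), LD+FR+TEMP ZT4 replicate 2 (378) or LD+FR+TEMP ZT16 replicate 1 (364).

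The called loci differed mostly on the morning side. The settings were farther apart at ZT4 than at ZT16 for 242 of the 282 higher loci and 288 of the 331 lower loci. Among those, the median difference of LD+FR+TEMP from Lab LD at ZT4 was -1.02 for the higher and 0.75 for the lower loci on the log2 scale, against 0.07 and -0.14 at ZT16. Of the 613 loci, 174 had a called change between morning and evening only in Lab LD and 201 only in LD+FR+TEMP. Another 179 changed in the same direction in both settings, with the larger change in LD+FR+TEMP for 86 and in Lab LD for 93. A further 55 changed in opposite directions, and 4 were called in neither setting. For comparison, 3725 loci (19.8%) changed between the times in Lab LD, of which 1777 (9.45%) were higher and 1948 (10.4%) lower in the evening. In LD+FR+TEMP 4014 (21.3%) changed, 1877 (9.98%) higher and 2137 (11.4%) lower in the evening.

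**Figure D1:**
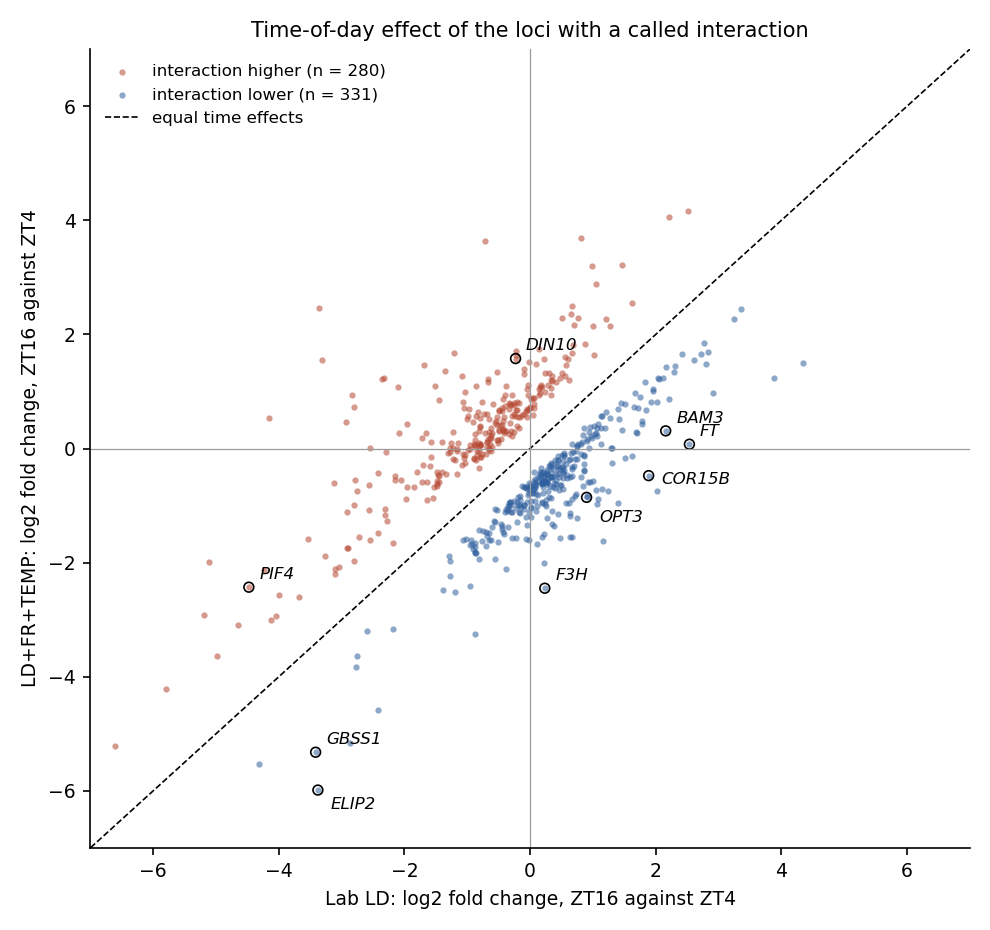
Log2 fold change from ZT4 to ZT16 in Lab LD (horizontal) and in LD+FR+TEMP (vertical) for 611 loci with a called interaction. Points above the dashed line of equal change have a higher interaction (red) and those below it a lower one (blue). AT2G04050 and HSP17.4, with 3 counts or fewer in a group, are not drawn.

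The 250 bases before the annotated start were read for 18737 of the tested loci (RefSeq, TAIR10.1) and searched on both strands for short motifs that clock and light factors are known to bind. The evening element AAATATCT, bound by CCA1 and its relatives, stood in 13.1% of the promoters of higher loci, 7.25% of those of lower loci and 5.01% of all. The G-box CACGTG, bound by HY5 and PIF factors, stood in 12.8%, 11.5% and 7.47% in the same order. The CCA1 binding site AAAAATCT (7.45%, 6.65% and 6.79%), the heat shock element GAANNTTC (9.57%, 8.46% and 9.20%) and the CRT/DRE core CCGAC (14.2%, 13.6% and 12.9%) lay closer to the share of all promoters. Site II, TGGGCC, stood in 10.3%, 13.9% and 16.9%. These shares are descriptions without a test, a match is not a bound site, and no stretch can match the evening element and the CCA1 site at the same place. Only 4 of the 613 called loci had no called change between the times in either setting. No share over loci that change between the times was taken, so these values do not tie a motif to the setting. Under the 20 other settings the share with an evening element was 9.67% to 16.5% among higher loci and 6.40% to 9.09% among lower loci.

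Promoters of 8 called genes are shown to place these motifs beside the values that follow. They are written 5′ to 3′ toward the gene, from RefSeq assembly TAIR10.1, with the motif in capitals. The first set holds a G-box (capitals) in 3 genes with a lower interaction, F3H, CHS and ELIP1, and in LNK3, with a higher one.
F3H (chr3:19024942-19025191, plus strand): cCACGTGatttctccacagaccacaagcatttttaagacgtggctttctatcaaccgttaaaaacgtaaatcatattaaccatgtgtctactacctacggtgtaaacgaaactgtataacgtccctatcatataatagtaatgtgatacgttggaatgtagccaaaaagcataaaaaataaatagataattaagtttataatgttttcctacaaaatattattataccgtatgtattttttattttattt
CHS (chr5:4488226-4488475, plus strand): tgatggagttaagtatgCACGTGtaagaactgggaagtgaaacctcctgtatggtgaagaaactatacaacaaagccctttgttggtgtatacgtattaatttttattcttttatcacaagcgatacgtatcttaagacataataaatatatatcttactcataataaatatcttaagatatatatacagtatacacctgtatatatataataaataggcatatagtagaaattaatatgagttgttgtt
ELIP1 (chr3:8085670-8085919, minus strand): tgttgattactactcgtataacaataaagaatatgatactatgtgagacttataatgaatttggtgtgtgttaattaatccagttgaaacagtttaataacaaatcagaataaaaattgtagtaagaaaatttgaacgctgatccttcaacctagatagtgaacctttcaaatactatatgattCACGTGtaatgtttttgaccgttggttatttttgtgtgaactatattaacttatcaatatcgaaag
LNK3 (chr3:3923265-3923514, plus strand): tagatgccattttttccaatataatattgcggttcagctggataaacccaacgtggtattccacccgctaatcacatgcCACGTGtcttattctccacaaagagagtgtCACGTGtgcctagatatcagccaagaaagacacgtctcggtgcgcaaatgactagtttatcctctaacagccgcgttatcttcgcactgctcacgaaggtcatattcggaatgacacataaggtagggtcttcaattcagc
The second set holds the evening element on either strand (capitals) in 3 genes with a higher interaction, MYBL2, SOC1 and BBX24, and in FLS1, with a lower one.
MYBL2 (chr1:26796533-26796782, minus strand): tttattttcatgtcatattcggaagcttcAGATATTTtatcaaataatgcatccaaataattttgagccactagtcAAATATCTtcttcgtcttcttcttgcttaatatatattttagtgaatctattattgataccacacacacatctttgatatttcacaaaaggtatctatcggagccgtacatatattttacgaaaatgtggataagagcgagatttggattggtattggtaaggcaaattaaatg
SOC1 (chr2:18811126-18811375, minus strand): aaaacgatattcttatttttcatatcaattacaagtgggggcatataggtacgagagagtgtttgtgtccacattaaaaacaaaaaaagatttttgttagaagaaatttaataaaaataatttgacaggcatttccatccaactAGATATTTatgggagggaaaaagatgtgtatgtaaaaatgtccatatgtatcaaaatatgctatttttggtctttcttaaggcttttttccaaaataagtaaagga
BBX24 (chr1:1829984-1830233, minus strand): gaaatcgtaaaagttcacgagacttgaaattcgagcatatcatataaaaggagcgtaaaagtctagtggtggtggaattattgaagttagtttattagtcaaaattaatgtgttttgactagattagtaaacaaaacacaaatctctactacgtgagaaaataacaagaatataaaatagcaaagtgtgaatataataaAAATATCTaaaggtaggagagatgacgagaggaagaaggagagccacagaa
FLS1 (chr5:2803583-2803832, plus strand): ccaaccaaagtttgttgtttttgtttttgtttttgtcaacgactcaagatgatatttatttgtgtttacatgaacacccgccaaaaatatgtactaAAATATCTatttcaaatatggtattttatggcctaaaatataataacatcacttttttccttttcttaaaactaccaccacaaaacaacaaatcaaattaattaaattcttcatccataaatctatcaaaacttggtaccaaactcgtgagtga
The G-box began 249 bases before the start in F3H, 233 in CHS and 66 in ELIP1, and LNK3 held 2, at 171 and 141 bases. MYBL2 held 2 evening elements, at 221 and 174 bases. Those of SOC1, BBX24 and FLS1 began at 106, 51 and 154 bases, and CHS holds an evening element as well, at 84 bases and not in capitals. These genes and the motif marked in each were chosen by hand, so the directions they cover are not a result.

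FT (AT1G65480), whose protein is the moving signal of flowering, rose toward evening in Lab LD, and no such rise passed in LD+FR+TEMP. In the 3 Lab LD libraries of each time it read 1.94, 1.71 and 2.12 CPM in the morning and 11.1, 10.8 and 11.7 CPM in the evening. The LD+FR+TEMP libraries read 6.91, 5.54 and 9.39 CPM in the morning and 8.7, 7.54 and 6.83 CPM in the evening. The Lab LD times did not overlap, and the LD+FR+TEMP times did, with all 6 of those libraries between the Lab LD groups. FT rose by 2.54 ± 0.20 (log2 ± SE) toward evening in Lab LD and stood at 0.08 ± 0.17 in LD+FR+TEMP, an interaction of -2.46 ± 0.27 (adjusted p = 3.73e-05). TSF (AT4G20370), its closest relative, had an interaction of -2.65 ± 0.67 (adjusted p = 0.0363) with a highest group mean of 2 CPM, and was called in 3 of 12 fits without 1 library.

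CO (AT5G15840), the direct activator of FT, rose toward evening in both settings. The rise was 2.53 ± 0.33 in Lab LD and 2.31 ± 0.29 in LD+FR+TEMP, with an interaction of -0.22 ± 0.46 that did not pass (adjusted p = 0.875). FKF1, the light sensor that removes repressors of CO, did not pass either (0.49 ± 0.19, adjusted p = 0.188). GI, its clock-controlled partner, stood at 0.66 ± 0.30 (adjusted p = 0.286). These values do not show that the genes behaved alike in the settings.

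The CDF factors repress CO and FT and peak in the morning. CDF3 (AT3G47500) read 66.2, 67.6 and 64.9 CPM in the morning and 3.91, 3.76 and 4.36 CPM in the evening of Lab LD. With far-red light and the temperature cycle it read 78.6, 71.9 and 79 CPM and 11.2, 10.2 and 8.79 CPM. All evening libraries of LD+FR+TEMP lay above those of Lab LD, and the interaction was 1.12 ± 0.16 (adjusted p = 0.000979). CDF2 was higher as well (1.08 ± 0.26, adjusted p = 0.0278), called in 6 of 12 fits without 1 library. CDF1 stood at 0.05 ± 0.20 (adjusted p = 0.936).

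SOC1 (AT2G45660), which gathers flowering signals at the shoot tip, had a called fall toward evening in Lab LD and none in LD+FR+TEMP. Its 3 Lab LD libraries read 61.2, 71.7 and 73.1 CPM in the morning and 35.1, 40.5 and 40.8 CPM in the evening. The LD+FR+TEMP libraries read 71.6, 61.3 and 68.7 CPM and 64, 77.1 and 54.2 CPM, so the evening Lab LD libraries were the low ones and the other groups overlapped. The interaction was 0.78 ± 0.18 (adjusted p = 0.0233), called in 6 of 12 fits without 1 library. Across the flowering list, 3 of 23 tested members were higher and 2 lower, with a median of -0.07. The count of higher members was 1 without Lab LD ZT16 replicate 1, without LD+FR+TEMP ZT4 replicate 2, and without LD+FR+TEMP ZT16 replicate 1 or 2.

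Of 13 morning clock genes tested, 12 fell toward evening in each setting, and 3 fell less in LD+FR+TEMP. LNK1 (AT5G64170), a morning coactivator of evening genes, read 71.6, 81.2 and 74.7 CPM in the morning and 2.75, 2.01 and 2.4 CPM in the evening of Lab LD. Under LD+FR+TEMP the same times gave 87.5, 87.5 and 80.0 CPM and 7.34, 6.45 and 6.69 CPM. Its evening libraries in LD+FR+TEMP were all above those of Lab LD, while the morning libraries differed by less, and the interaction was 1.35 ± 0.18 (adjusted p = 0.000432). LNK3 (1.40 ± 0.28, adjusted p = 0.00999) and PRR7, a repressor of CCA1 and LHY (1.08 ± 0.19, adjusted p = 0.00382), behaved in the same direction. LNK3 was called in 11 of 12 fits without 1 library.

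The paired morning repressors CCA1 and LHY did not pass. LHY (AT1G01060) averaged 130.2 ± 32.9 and 6.72 ± 1.77 CPM (SD, n = 3) at ZT4 and ZT16 in Lab LD and 319 ± 42.3 and 7.93 ± 1.5 CPM in LD+FR+TEMP. Its interaction was -1.05 ± 0.29 with an adjusted p of 0.056, and 3 of 12 fits without 1 library called it. CCA1 stood at -0.33 ± 0.23 (adjusted p = 0.548).

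Of 12 evening clock genes, ELF3 was lower. ELF3 (AT2G25930), the scaffold of the evening complex and a thermosensor, read 3.95, 3.92 and 4.17 CPM in the morning and 21.5, 21.9 and 21.3 CPM in the evening of Lab LD. The libraries of LD+FR+TEMP read 6.13, 5.84 and 6.95 CPM and 20.9, 19.8 and 19.3 CPM. The morning libraries of LD+FR+TEMP were all above and the evening ones all below those of Lab LD, so the rise toward evening was smaller (-0.76 ± 0.16, adjusted p = 0.0148). TOC1, an evening repressor, stood at 0.46 ± 0.23 (adjusted p = 0.341).

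PIF4 (AT2G43010), which promotes stem growth in shade and warmth, had the largest called interaction of the shade list. It read 48.5, 53.1 and 52.7 CPM in the morning and 2.11, 1.75 and 3.03 CPM in the evening of Lab LD. The values in LD+FR+TEMP were 37.9, 33.3 and 37.5 CPM and 7.27, 6.39 and 6.5 CPM. Morning libraries were all lower and evening libraries all higher in LD+FR+TEMP, so PIF4 fell by less toward evening there (2.05 ± 0.21, adjusted p = 2.22e-05). PIF1, a repressor of germination and greening, was also higher (0.89 ± 0.20, adjusted p = 0.0187).

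HFR1 and PIL1, quick markers of a low red to far-red ratio, did not pass. HFR1 averaged 2.95 ± 0.795 CPM in the morning and 0.823 ± 0.415 CPM in the evening of Lab LD and 14.8 ± 1.2 and 4.11 ± 0.736 CPM in LD+FR+TEMP, higher at both times. It changed toward evening by -1.83 ± 0.30 in Lab LD and -1.85 ± 0.21 in LD+FR+TEMP. The interaction of HFR1, -0.02 (adjusted p = 0.993), changed sign under 8 alternatives, and its SE is left out as unreliable for so small a value. PIL1 stood at -0.71 ± 0.47 (adjusted p = 0.506). In all, 2 of 20 tested members of the list were higher and 0 lower, with a median of 0.47. PIF1 was called in 10 of 12 fits without 1 library, and the list's count was 1 without Lab LD ZT16 replicate 1 or LD+FR+TEMP ZT16 replicate 1.

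**Figure D2:**
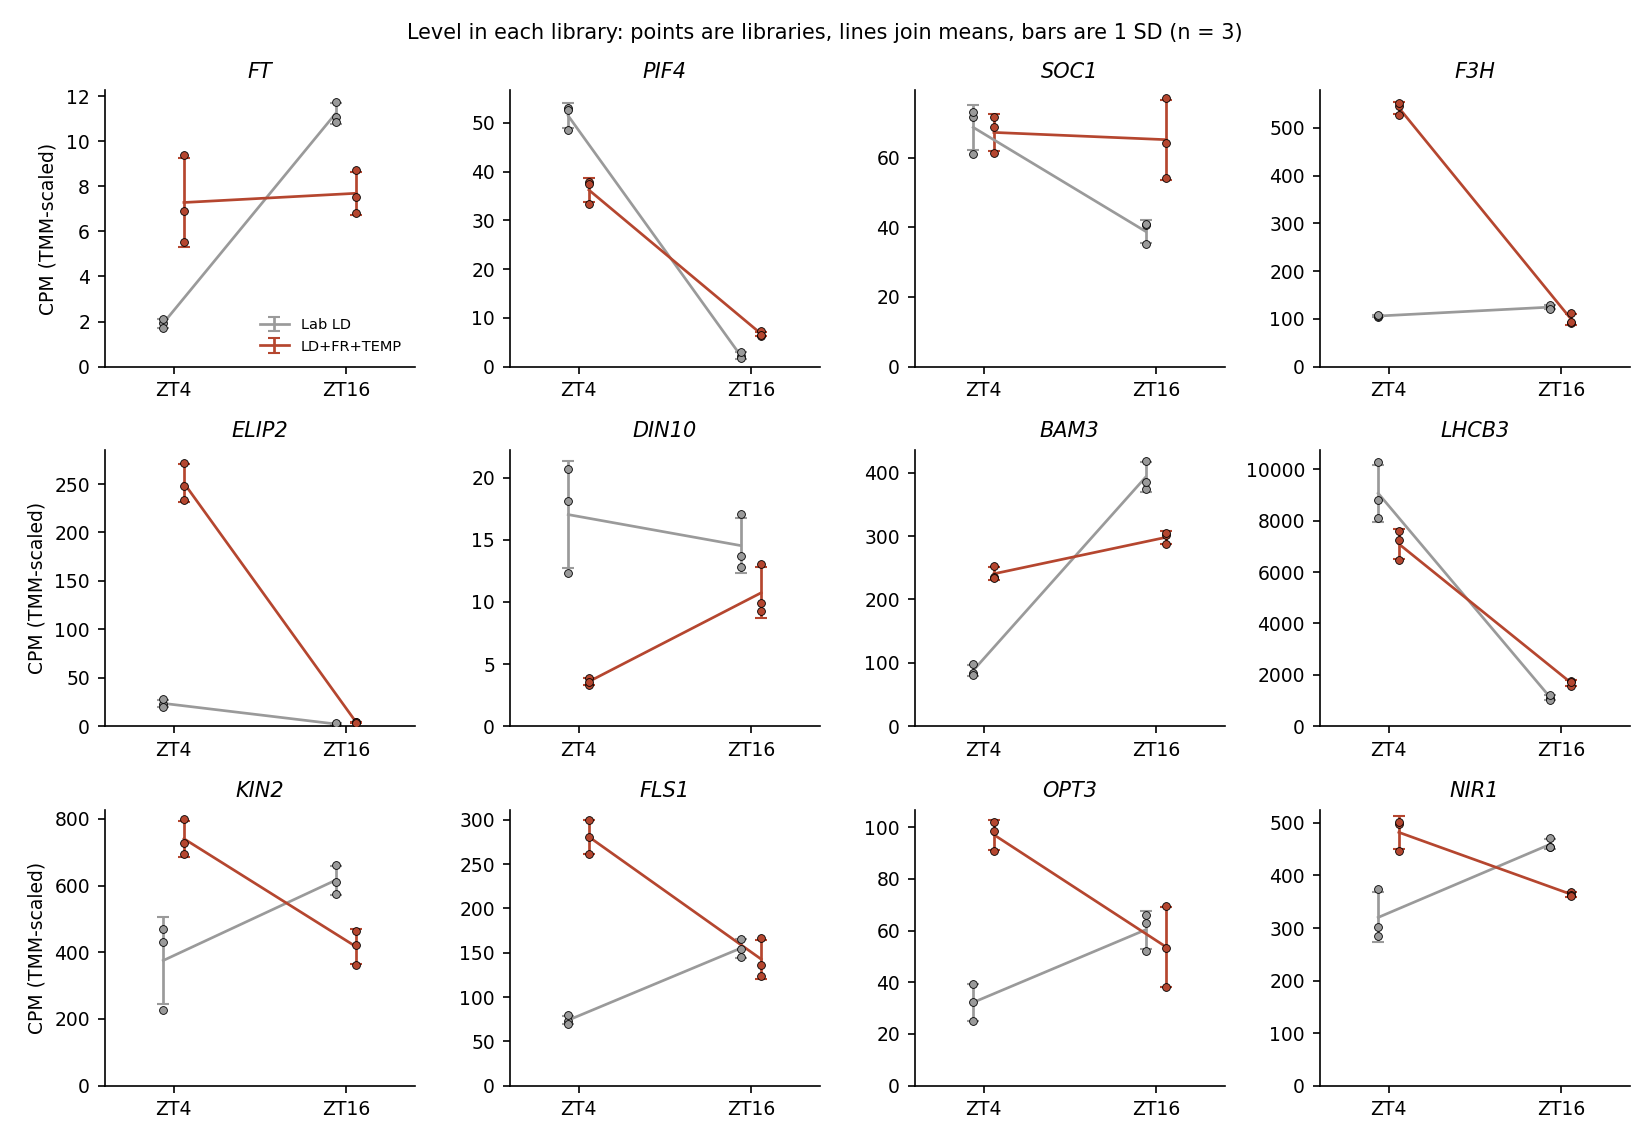
CPM at ZT4 and ZT16 in Lab LD (grey) and LD+FR+TEMP (red) for 12 genes, where points are libraries, lines join means and bars are 1 SD (n = 3). FT, SOC1, BAM3 and DIN10 change between the times in 1 setting or much more in 1 setting, and KIN2, FLS1, OPT3 and NIR1 cross.

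Among photoreceptors, 1 of 11 was higher and 1 lower. CRY2, the blue-light receptor that protects CO in the evening, averaged 39.5 ± 3.61 and 49.8 ± 4.9 CPM in Lab LD and 23 ± 1.91 and 44.2 ± 3.66 CPM in LD+FR+TEMP (0.61 ± 0.16, adjusted p = 0.0469). It was called in 2 of 12 fits without 1 library. CRY3, an organelle cryptochrome, was lower (-0.96 ± 0.18, adjusted p = 0.00502).

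Flavonoid and anthocyanin genes held the most calls of any list. Of 26 tested members 15 were lower and 1 higher, with a median interaction of -1.20. This was also the list with the most members tested. Over all loci tested 1.76% were lower and 1.5% higher, and these shares stand beside the count of every list. The lower members included PAL1 and C4H, which start phenylpropanoid synthesis, sugar transferases and some regulators, but not every step. DFR, LDOX and 5MAT did not pass, nor did the regulators MYB11, MYB12, MYB111, MYB90, GL3, EGL3 and TTG1. F3H (AT3G51240), which hydroxylates flavanones, read 104, 106 and 108 CPM in the morning and 123, 129.7 and 121 CPM in the evening of Lab LD. Its values in LD+FR+TEMP were 545, 527 and 552 CPM in the morning and 92, 112 and 93.3 CPM in the evening. The 3 morning libraries of LD+FR+TEMP stood far above the other 9, and the interaction was -2.68 ± 0.13 (adjusted p = 6.42e-09), the smallest adjusted p of the list.

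CHS (AT5G13930), the entry enzyme of the flavonoid branch whose promoter is shown above, had the same shape. Its Lab LD libraries read 346, 374 and 342 CPM in the morning and 434, 405 and 379 CPM in the evening. Those of LD+FR+TEMP read 784, 899 and 791 CPM and 281, 267 and 296 CPM, so they were the highest in the morning and the lowest in the evening (-1.75 ± 0.13, adjusted p = 1.17e-06). FLS1 (AT5G08640), which makes flavonols, rose toward evening in Lab LD, with 72.7, 79.2 and 69.8 CPM in the morning and 166, 155 and 145 CPM in the evening. In LD+FR+TEMP it fell, from 262, 280.3 and 300.0 CPM to 137, 167 and 124 CPM. Evening libraries of the settings overlapped and morning ones did not (-2.04 ± 0.16, adjusted p = 1.42e-06).

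The other lower members were CHI, which acts after CHS (-1.74 ± 0.16), CHIL, a helper protein of CHS (-1.78 ± 0.17), 4CL3, which activates coumarate (-1.56 ± 0.22), F3'H, which adds a hydroxyl group to the flavonoid ring (-2.05 ± 0.35), PAL1 (-0.97 ± 0.16) and C4H (-0.74 ± 0.19). C4H was called in 2 of 12 fits without 1 library. The sugar transferases UGT78D2 (-1.45 ± 0.24), UGT78D1 (-1.14 ± 0.22) and UGT79B1 (-1.53 ± 0.31) were lower, as was GSTF12, a carrier of anthocyanin to the vacuole (-1.26 ± 0.20). Of the regulators, MYB75 (-1.81 ± 0.35) and TT8 (-2.22 ± 0.45), activators of anthocyanin genes, were lower. MYBL2 (AT1G71030), a repressor of the same genes, was the single higher member. It read 35.2, 22.7 and 42.5 CPM in the morning and 1.92, 2.01 and 2.34 CPM in the evening of Lab LD, and 9.12, 8.04 and 8.82 and 1.29, 1.72 and 1.31 CPM in LD+FR+TEMP (1.42 ± 0.34, adjusted p = 0.0293). MYBL2 was called in 5 of 12 fits without 1 library.

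Genes of HY5, the B-box factors and photoprotection gave 7 lower and 2 higher of 24 tested, with a median of -0.58 (4 lower without Lab LD ZT16 replicate 1). ELIP2 (AT4G14690), a chloroplast protein made in strong light, read 22.6, 27.8 and 20.3 CPM in the morning and 1.6, 2.13 and 3.03 CPM in the evening of Lab LD. Far-red light with the temperature cycle gave 233, 248 and 272 CPM and 4.49, 4.02 and 3.35 CPM. Its morning libraries in LD+FR+TEMP stood far above all others, while the evening libraries of both settings were low (-2.61 ± 0.27, adjusted p = 2.22e-05). ELIP1 had an interaction of -2.15 ± 0.17 (adjusted p = 1.42e-06) and was higher in LD+FR+TEMP at both times, by a wider margin in the morning.

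HY5 (AT5G11260) rose toward evening in Lab LD, with 8.87, 12 and 10.2 CPM in the morning and 14.1, 13.8 and 13.6 CPM in the evening. The LD+FR+TEMP libraries read 15.5, 14.7 and 16.9 CPM and 12.9, 12.3 and 13.1 CPM. Morning libraries were all higher and evening libraries all lower in LD+FR+TEMP (-0.73 ± 0.17, adjusted p = 0.0246), with a call in 4 of 12 fits without 1 library. HYH, its relative, was lower too (-0.98 ± 0.19), as were SPA4, part of the complex that degrades HY5 (-1.11 ± 0.20), BBX32 (-1.09 ± 0.24) and SIG5, a chloroplast sigma factor (-0.88 ± 0.21). The 2 higher members were BBX28 (1.59 ± 0.27, adjusted p = 0.00244) and BBX24 (0.91 ± 0.18, adjusted p = 0.00783), B-box proteins that restrain HY5 activity. Both fell steeply toward evening in each setting, and less so in LD+FR+TEMP.

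**Figure D3:**
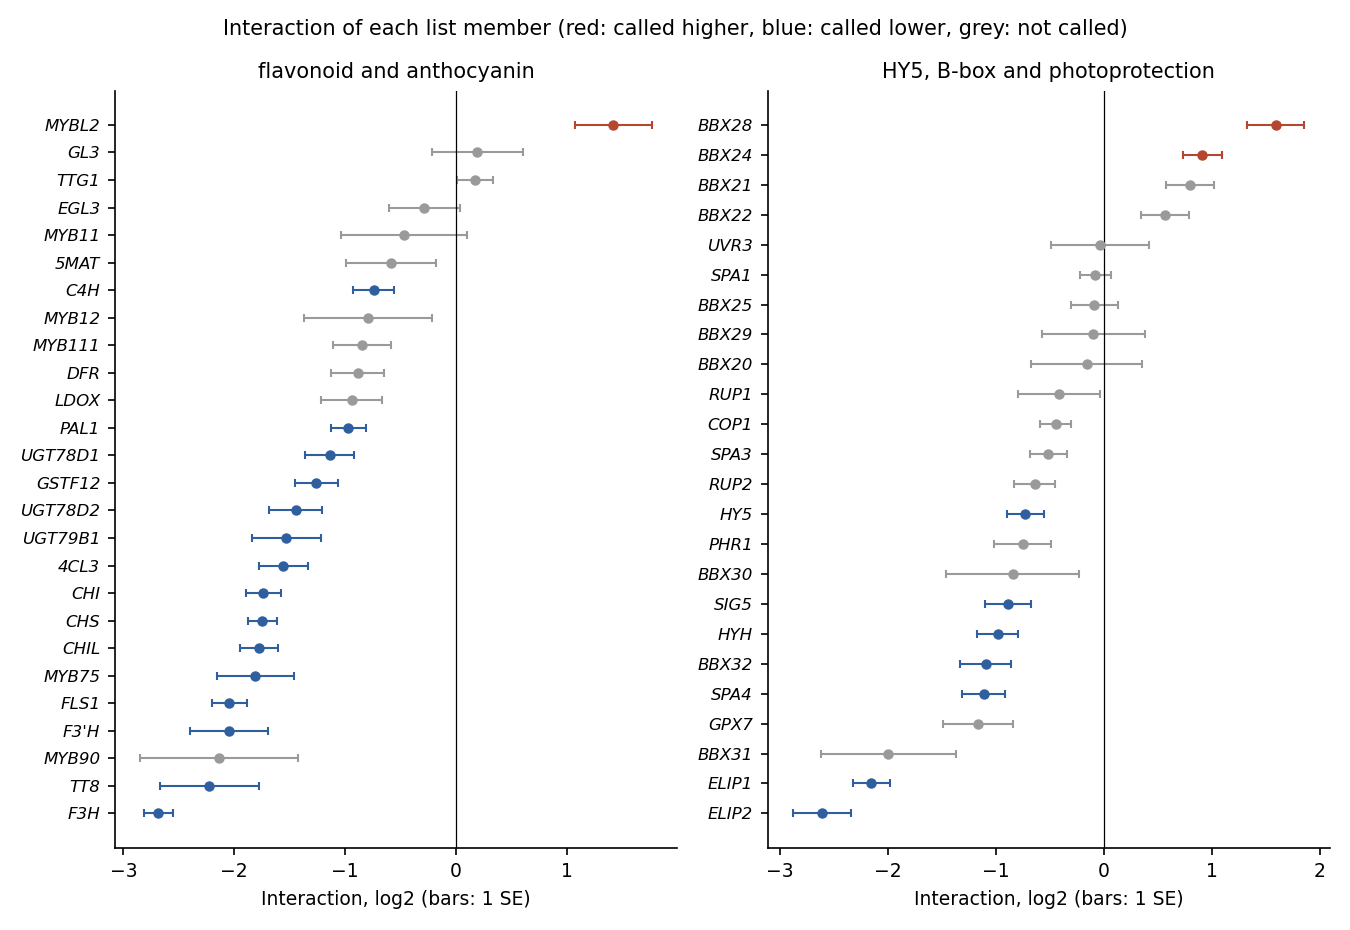
Interaction (log2, with bars of 1 SE) of the 26 flavonoid and anthocyanin genes and the 24 genes of HY5, the B-box factors and photoprotection. Most members lie left of 0, MYBL2 is called to the right in the first panel, and BBX28 and BBX24 in the second.

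Genes induced by sugar starvation showed 5 higher and 0 lower of 13 tested, with a median of 1.14. DIN10 (AT5G20250), a raffinose synthase homologue induced in darkness, read 18.1, 12.3 and 20.7 CPM in the morning and 13.7, 12.8 and 17 CPM in the evening of Lab LD. Under LD+FR+TEMP the same times gave 3.85, 3.34 and 3.58 CPM and 9.25, 9.9 and 13.1 CPM. Morning libraries of LD+FR+TEMP were the low group, and DIN10 had a called evening rise in that setting and none in Lab LD (1.81 ± 0.27, adjusted p = 0.00111). TPS11 (1.50 ± 0.32) and TPS8 (1.14 ± 0.29), of the trehalose-6-phosphate synthase family, fell toward evening in both settings, and less in LD+FR+TEMP. AKINBETA1, a subunit of the energy sensor kinase SnRK1 (1.18 ± 0.26), and ASN1, an asparagine synthetase (1.67 ± 0.44), were the other called members. TPS11, AKINBETA1, TPS8 and ASN1 were called in 11, 10, 3 and 4 of 12 fits without 1 library. DIN10 was called in all 12, but not with the top transcript model (1.34). The list's count was 3 without Lab LD ZT16 replicate 1 or 2, LD+FR+TEMP ZT4 replicate 1 or LD+FR+TEMP ZT16 replicate 3, and 2 without LD+FR+TEMP ZT4 replicate 3.

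Starch genes divided, with 2 higher and 3 lower of 25 tested and a median of -0.29. BAM3 (AT4G17090), a chloroplast beta-amylase of night-time starch breakdown, read 98.7, 83.8 and 81.3 CPM in the morning and 419, 374 and 386 CPM in the evening of Lab LD. Its values in LD+FR+TEMP were 235, 252 and 234 CPM and 287, 302 and 305 CPM. All LD+FR+TEMP libraries lay between the Lab LD groups, so the evening rise was smaller there (-1.85 ± 0.14, adjusted p = 1.05e-06).

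GBSS1 (AT1G32900), which makes amylose and peaks in the morning, averaged 84.9 ± 10.5 and 7.95 ± 0.902 CPM in Lab LD and 159 ± 10.2 and 3.97 ± 1.51 CPM in LD+FR+TEMP. Its fall toward evening was larger in LD+FR+TEMP (-1.91 ± 0.25, adjusted p = 0.000319). PWD, which phosphorylates starch before breakdown, was lower (-0.95 ± 0.18, adjusted p = 0.00683). PHS1, a plastid phosphorylase (1.02 ± 0.14, adjusted p = 0.00057), and AMY3, a plastid alpha-amylase (0.82 ± 0.20, adjusted p = 0.0309), were higher. AMY3 was called in 3 of 12 fits without 1 library.

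Some photosystem genes fell toward evening by less in LD+FR+TEMP. Of 25 tested, 6 were higher and 0 lower, with a median of 0.41, and the 6 were LHCA1, LHCA3, LHCA4, LHCB1.1, LHCB3 and PSAF, all of the light-harvesting antennae or photosystem I. LHCB3 (AT5G54270), an antenna protein of photosystem II, read 8099, 8809 and 10287 CPM in the morning and 1077, 1023 and 1216 CPM in the evening of Lab LD. Far-red light with the temperature cycle gave 7235, 6466 and 7579.5 CPM and 1755, 1562 and 1737 CPM. The evening libraries of LD+FR+TEMP were all above those of Lab LD and the morning ones all below (0.96 ± 0.15, adjusted p = 0.00185). LHCA4 had the largest value (1.18 ± 0.17), and PSAF was called in 11 of 12 fits without 1 library. LHCB1.1 (1.12 ± 0.17) belongs to a set of near-identical copies, among which reads may have been shared. PORB, the light-dependent chlorophyll enzyme, was the single call of 12 chlorophyll genes (0.62 ± 0.13, adjusted p = 0.0132).

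Cold-regulated genes gave 3 lower and 0 higher of 13 tested, with a median of -0.61, or -0.25 when CBF2, with 3 counts or fewer in a group, was set to a floor of 3 counts over the group. COR15B (AT2G42530), which protects chloroplast membranes in frost, read 27.8, 27.5 and 17.9 CPM in the morning and 108, 70.2 and 93 CPM in the evening of Lab LD. In LD+FR+TEMP the values were 56, 68.9 and 65.2 CPM and 51.7, 43.7 and 41.3 CPM. It was higher in the evening in Lab LD, and the interaction was -2.36 ± 0.24 (adjusted p = 2.22e-05). In LD+FR+TEMP the morning libraries were the higher ones, but that fall did not pass (-0.48 ± 0.17, adjusted p = 0.0519).

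KIN2 (AT5G15970), a small cold-induced protein, read 429.6, 469.5 and 227 CPM in the morning and 662, 612 and 574 CPM in the evening of Lab LD. The LD+FR+TEMP libraries read 727, 799 and 694 CPM and 465, 423 and 361 CPM, so the direction turned over and the times did not overlap in either setting. Its interaction was -1.55 ± 0.26 (adjusted p = 0.00293), with the reservation that KIN1 is a near-identical neighbour. COR15A, the neighbour of COR15B, was lower as well (-1.84 ± 0.34, adjusted p = 0.00539).

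Of 12 heat shock genes tested, HSFB1, a heat shock factor that represses transcription, was lower (-0.81 ± 0.19, adjusted p = 0.0282), with a call in 6 of 12 fits without 1 library. HSP17.4, a small heat shock protein, was called higher at 36 and 21 counts over the 3 libraries at ZT4 and ZT16 in Lab LD and 2 and 19 counts in LD+FR+TEMP, so no fold change is given. It was called in 4 of 12 fits without 1 library. The list's median was 0.19.

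Glucosinolate genes gave 4 lower and 0 higher of 20 tested, with a median of -0.42. The 4 were CYP79B2 (-1.11 ± 0.18), CYP83B1 (-0.97 ± 0.18), SOT16 (-0.73 ± 0.13) and SUR1 (-0.62 ± 0.14), which act in the making of the core structure, the first of them from tryptophan. CYP79B2 (AT4G39950) read 31.3, 33.9 and 28.8 CPM in the morning and 46.3, 53.5 and 41.9 CPM in the evening of Lab LD. Under LD+FR+TEMP the same times gave 50.7, 59.9 and 42.8 CPM and 36.7, 33.1 and 37.3 CPM, with the higher time reversed and no overlap between times in either setting (adjusted p = 0.00224).

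Iron genes gave 3 lower and 0 higher of 14, with a median of -0.10. AT2G30766, entered in the list but without a symbol in the name table, is not among the 14 and was lower too (-2.18 ± 0.31, adjusted p = 0.000703). OPT3 (AT4G16370), a transporter that carries iron in the phloem, read 39.3, 24.8 and 32.5 CPM in the morning and 51.9, 62.8 and 66.1 CPM in the evening of Lab LD. Its values in LD+FR+TEMP were 90.7, 102 and 98.4 CPM and 53.4, 38.2 and 69.4 CPM. The morning libraries of LD+FR+TEMP were the highest, and those of Lab LD had the lowest mean (-1.76 ± 0.26, adjusted p = 0.000968). NAS4, which makes the metal chelator nicotianamine (-0.89 ± 0.16), and PYE, a regulator of iron deficiency (-0.84 ± 0.22, adjusted p = 0.0396), were the others. PYE was called in 3 of 12 fits without 1 library.

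Nitrate and sulfate assimilation had 2 lower of 9 tested and a median of -0.26. NIR1 (AT2G15620), nitrite reductase, read 374, 302 and 284 CPM in the morning and 471, 454 and 453 CPM in the evening of Lab LD. Far-red light with the temperature cycle gave 499, 502 and 446 CPM and 369, 363 and 361 CPM, higher in the evening in the first setting and in the morning in the second (-0.93 ± 0.14, adjusted p = 0.0016). APR2, the reductase of activated sulfate, fell toward evening in both settings, and more in LD+FR+TEMP (-0.69 ± 0.14, adjusted p = 0.0109).

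The gibberellin, brassinosteroid, jasmonate and salicylic acid lists held a single call each. Over all loci tested 3.26% were called, and lists of this size are too short to set a share against that. GA3OX2, which makes active gibberellin, had a called evening rise in Lab LD and none in LD+FR+TEMP, with means of 1.22 ± 0.31 and 3.78 ± 1.12 CPM there and 5.67 ± 1.53 and 5.16 ± 0.569 CPM in LD+FR+TEMP (-1.76 ± 0.37, adjusted p = 0.0119), and was the single call of 15 gibberellin genes. CPD, a brassinosteroid synthesis enzyme, was the single call of 9 (0.62 ± 0.16, adjusted p = 0.0368), found in 3 of 12 fits without 1 library. LOX2, which starts jasmonate synthesis, was the single call of 16 (-0.72 ± 0.14, adjusted p = 0.00884). PR5, a pathogenesis-related protein of the salicylic acid response, was the single call of 13. Its means were 10.6 ± 3.11 and 13.5 ± 1.19 CPM in Lab LD and 30.3 ± 6.41 and 12.1 ± 1.84 CPM in LD+FR+TEMP (-1.67 ± 0.27, adjusted p = 0.00208).

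No member passed in the lists of auxin response (14 tested, median 0.38), abscisic acid and drought (17, 0.36) and cell division (8, 0.25). The members with the smallest adjusted p were GH3.6, which conjugates auxin (0.51 ± 0.16, adjusted p = 0.101), NAC019, a drought-induced factor (3.26 ± 1.03, adjusted p = 0.0993), and CDKB2;1, a mitotic kinase (0.35 ± 0.17, adjusted p = 0.334). In edgeR's test without adjustment, 2986 of all 18806 loci had a p under 0.05. Over the 26 lists together, 376 of 408 members were tested, of which 29 were higher and 45 lower. A further 13 members, for which the name table holds no matching symbol, were tested outside these counts, and AT3G15450 of the sugar starvation list was higher while AT4G14090 of the flavonoid list and AT2G30766 of the iron list were lower. The called share of 19.7% stands beside 3.26% of all loci tested and was not tested against it. Members were chosen with earlier results of these data known, so no conclusion is drawn from the difference between these shares.

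**Figure D4:**
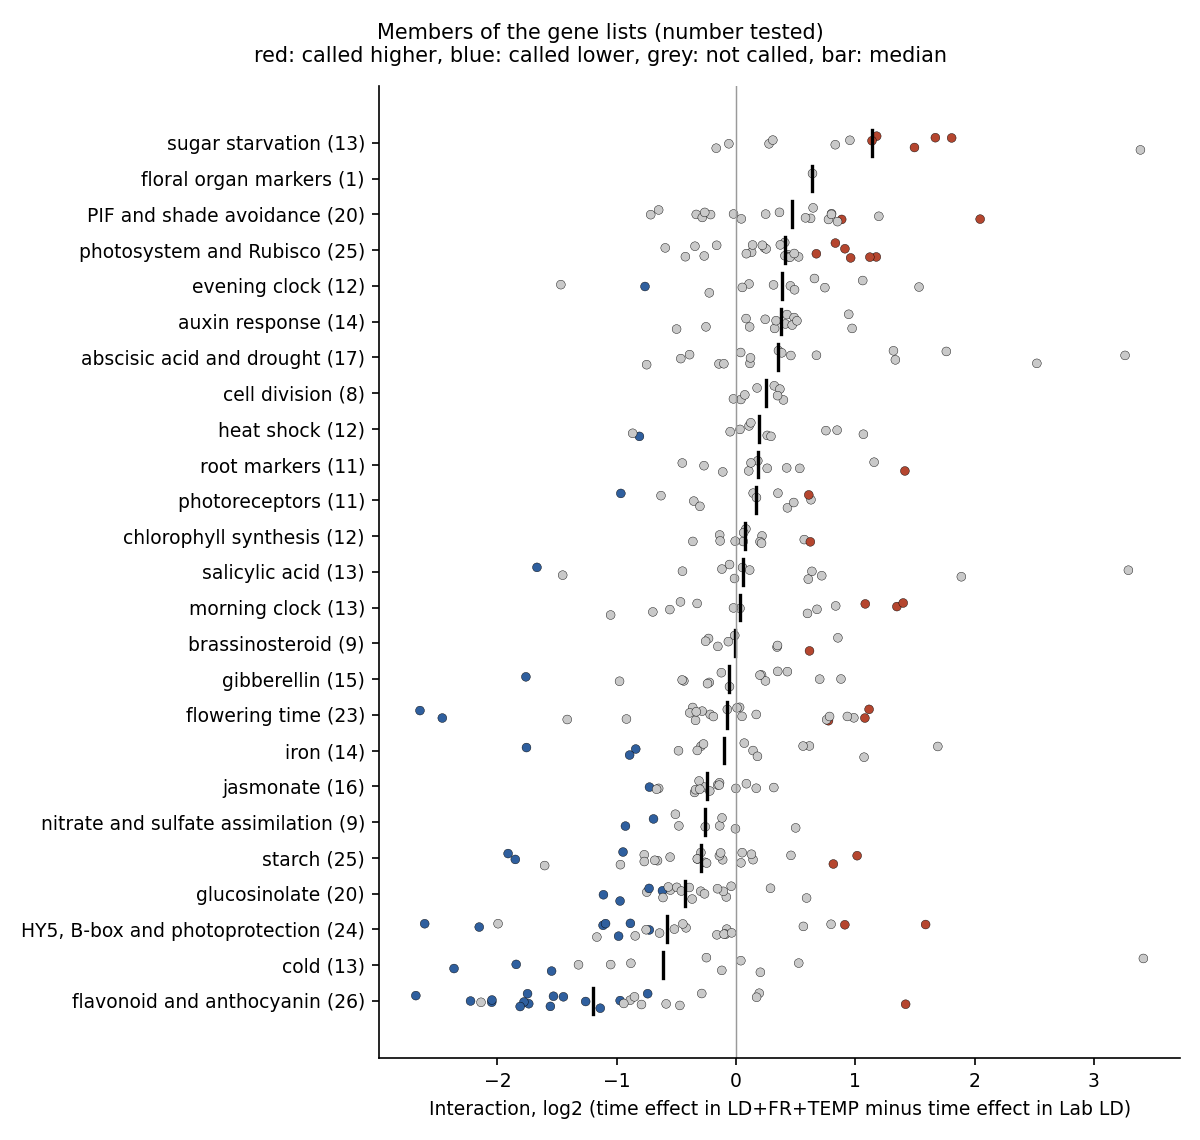
Interaction (log2) of each tested member of 25 gene lists, ordered by the list's median (black bar), with called members in red (higher) and blue (lower). Flavonoid and anthocyanin genes lie farthest left and sugar starvation genes farthest right, and HSP17.4, CBF2 and BGLU30, with 3 counts or fewer in a group, are not drawn.

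The 11 root markers summed to more in the LD+FR+TEMP libraries than in those of Lab LD, at 102 to 106 CPM in Lab LD ZT4, 82.8 to 90.4 in Lab LD ZT16, 127 to 173 in LD+FR+TEMP ZT4 and 158 to 204 in LD+FR+TEMP ZT16. Without TIP2;3, which held a large share of the sum, the other 10 summed to 62.5 to 71.5, 61.1 to 66.8, 84.6 to 102 and 77.8 to 89.8 CPM in the same order. The sums were not tested, and no marker was at 0 in any group. Of these, TIP2;3 (AT5G47450), a vacuolar channel, was called higher and the other 10 did not pass, with a list median of 0.18. TIP2;3 read 38.7, 34.5 and 42.5 CPM in the morning and 16.9, 23.4 and 23.6 CPM in the evening of Lab LD. The LD+FR+TEMP libraries read 67.5, 71 and 42 CPM and 80.8, 117 and 68.7 CPM, with overlap between those times (1.42 ± 0.29, adjusted p = 0.0101). The part of these root markers in the other results was not tested. PI was the only floral organ marker tested and did not pass (0.63 ± 0.81, adjusted p = 0.776), and no seed storage marker was tested.

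In total, 10 list members reversed, with a called evening rise in Lab LD and a called evening fall in LD+FR+TEMP. They were FLS1, CHI, 4CL3 and UGT78D1 of the flavonoid list, KIN2 and COR15A of the cold list, CYP79B2 and CYP83B1 of the glucosinolate list, and OPT3 and NIR1. Over all loci the 55 reversals comprised 39 of this kind and 16 of the opposite kind. Their number was 86 without Lab LD ZT4 replicate 2, 35 without Lab LD ZT16 replicate 1 or LD+FR+TEMP ZT4 replicate 2, and 36 without LD+FR+TEMP ZT16 replicate 1. No list member was of the opposite kind. XTH20 (AT5G48070), a cell wall enzyme, also fell in this way, with means of 1.34 ± 0.687 and 3.5 ± 1.67 CPM in Lab LD and 5.87 ± 0.988 and 3.02 ± 0.769 CPM in LD+FR+TEMP (-2.36 ± 0.50, adjusted p = 0.0144).

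Over all loci with at least 5 CPM in a group and 1 sign in every fit without a library, the 10 largest negative interactions included FT, F3H, ELIP2, COR15B and XTH20. AT2G23910, annotated as a Rossmann-fold protein, had the most negative value (-2.85 ± 0.46, adjusted p = 0.00208). It read 0.453, 1.19 and 0.163 CPM in the morning and 13.9, 12.3 and 9.85 CPM in the evening of Lab LD, and 2.35, 3.72 and 2.15 and 8.77, 7.28 and 7.02 CPM in LD+FR+TEMP, a smaller evening rise. The remaining loci were AT1G24580, a RING protein (-2.38 ± 0.39), AT4G27360, a dynein light chain (-2.30 ± 0.49), AT1G03940, an acyl transferase (-2.22 ± 0.29), and AT2G30766, annotated as an unknown protein (-2.18 ± 0.31) and entered in the iron list but left out of its counts. All 4 averaged their highest level in LD+FR+TEMP at ZT4.

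The 10 largest positive interactions came with unequal libraries in 2 groups. In all 10 loci Lab LD ZT4 replicate 2 was the lowest of its group, and in 9 of 10 LD+FR+TEMP ZT16 replicate 2 was the highest of its group. CYP81D8 (AT4G37370), a stress-induced P450 enzyme, read 83.6, 5.29 and 53.5 CPM in the morning and 2.24, 7.14 and 4.48 CPM in the evening of Lab LD. Under LD+FR+TEMP the same times gave 0.713, 0.91 and 0.43 CPM and 1.43, 8.17 and 1.71 CPM. Morning replicates 1 and 3 of Lab LD were high and replicate 2 lay within the range of the evening libraries (5.83 ± 1.27, adjusted p = 0.0159). Without LD+FR+TEMP ZT16 replicate 2 the value was 4.56 (adjusted p = 0.136), and of the 9 loci with a fitted fold change 4 were called. Without Lab LD ZT4 replicate 2 all 9 were called.

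AT1G15010, AT2G18193, AT2G41730, UGT73B4 and TPX2, a thioredoxin peroxidase, showed the same high morning mean in Lab LD. Their interactions were 4.87 ± 1.09, 4.70 ± 1.18, 3.54 ± 0.88, 3.77 ± 0.97 and 3.40 ± 0.89. They were called in 9, 2, 3, 3 and 3 of 12 fits without 1 library. AT2G04050 held 334 and 16 counts at ZT4 and ZT16 in Lab LD and 0 and 17 counts in LD+FR+TEMP, so no fold change is given. Over all 282 higher loci, replicate 2 was the lowest Lab LD ZT4 library for 117, replicate 1 for 96 and replicate 3 for 69. The highest LD+FR+TEMP ZT16 library was replicate 2 for 132, replicate 1 for 78 and replicate 3 for 72. Without Lab LD ZT4 replicate 2 the counts were 446 higher and 385 lower, beside 282 and 331.

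Of the same 10 loci, 3 were called in every fit without 1 library. SOT12 (AT2G03760), a sulfotransferase, read 127, 36.6 and 67.8 CPM in the morning and 13.6, 18.8 and 13.7 CPM in the evening of Lab LD. Its values in LD+FR+TEMP were 7.77, 7.43 and 6.09 CPM and 13.7, 24.8 and 11.9 CPM, with a fall toward evening in the first setting and a rise in the second (3.58 ± 0.50, adjusted p = 0.000621). AT2G33830, of the dormancy and auxin-associated family, read 8.2, 7.13 and 8.89 CPM in the morning and 98.3, 133 and 81.4 CPM in the evening in LD+FR+TEMP. In Lab LD it averaged 39.1 ± 18.1 CPM and 68.6 ± 14.4 CPM (SD, n = 3), so the LD+FR+TEMP morning libraries were lowest (2.88 ± 0.40, adjusted p = 0.000621). PKS4, a phytochrome kinase substrate, averaged 7.55 ± 2.31 and 0.212 ± 0.0994 CPM in Lab LD and 3.06 ± 1.06 and 0.766 ± 0.284 CPM in LD+FR+TEMP (3.12 ± 0.61, adjusted p = 0.00793).

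**Figure D5:**
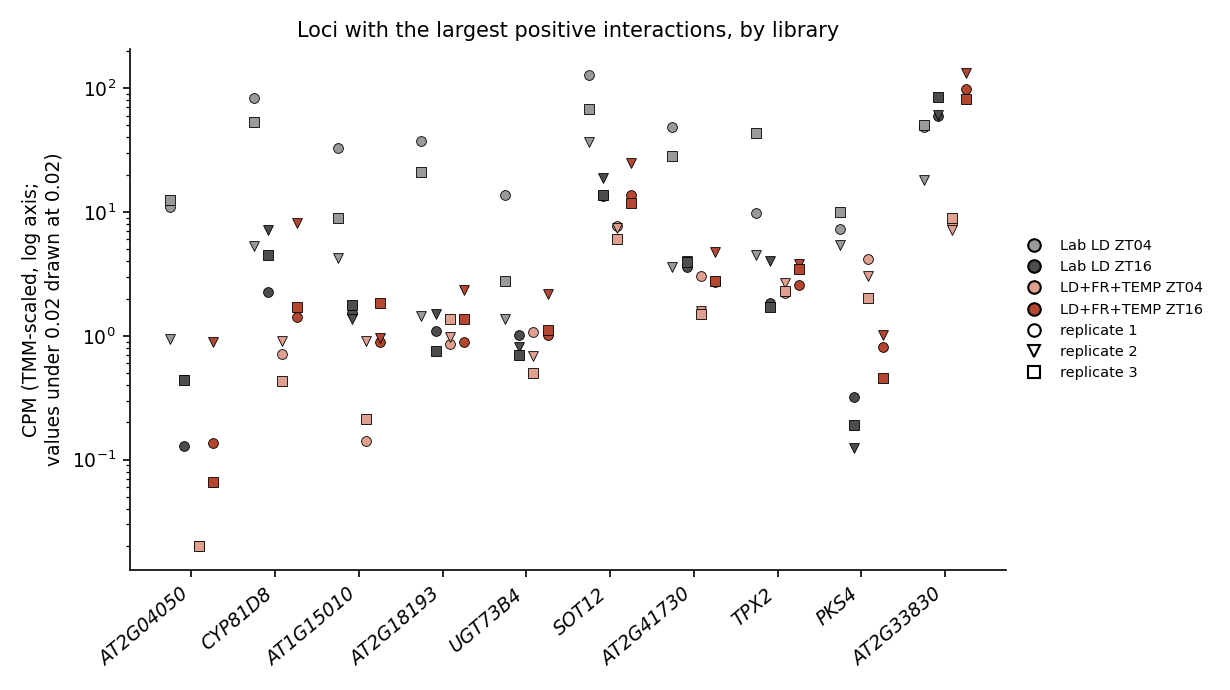
CPM on a log axis in each of the 12 libraries for the 10 loci with the largest positive interactions, with colours for groups and marker shapes for replicates; values under 0.02 are drawn at 0.02. Replicate 2 (triangle) is the lowest Lab LD ZT4 library for all 10 and the highest LD+FR+TEMP ZT16 library for 9.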

How the data were processed

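The deposited files give whole-number read counts per transcript model, which the authors made from 3′ tag libraries. The submitters' processing notes name Bowtie2, edgeR, Trimmomatic 0.36, bcl2fastq 2.17.1.14 and the build TAIR10. The counting step and its strand are not given in the sources used here, so antisense partners and near-identical copies (LHCB1, RBCS, KIN1 and KIN2, small heat shock genes) are uncertain. Counts of 48359 models were summed to 27655 loci.

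In R 4.3.3, edgeR 4.0.16 kept 18806 loci (filterByExpr, minimum count 10, total 15) of the 12 libraries, scaled them by TMM and fitted 4 group means without a block. The coefficient of biological variation was 0.125. Quasi-likelihood F tests were adjusted after Benjamini and Hochberg over all loci, and SE is the log2 value divided by the square root of F. Such an SE is unreliable where the log2 value is very small. The fit was tested on simulated data with 100 loci changed 2-fold and 100 changed 4-fold. It called 56% of the former and 87% of the latter in the right direction, beside 10 false calls. Simulated loci had the same mean in all groups, apart from the change, which was put in LD+FR+TEMP ZT16 only. The called loci differed mostly at ZT4 and most changed between the times, so these rates may not hold for them. Genes that did not pass may therefore still differ between the settings.

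The members, gene lists and tests were chosen with earlier results of these data known. Genes were named as FT, CO, GI, FKF1, CDF1, SOC1, CCA1, LHY, TOC1, PIF4, HFR1 and PIL1. From each list up to 3 higher and 3 lower genes with the smallest adjusted p were added, or the smallest adjusted p where none passed. The 10 largest interactions each way over all loci, at 5 CPM or more in a group and with 1 sign in every fit without a library, completed them. Further called members are named to complete a list. Of 421 list members, 408 matched the name table, and the other 13 are left out of list counts. Alternatives were a replicate block, all 24 libraries, RLE scaling, DESeq2 1.42.0, limma-trend 3.58.1, other filters, the top transcript model, and each library left out.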

Additional observations from a re-analysis of the deposited data

Results flagged for a closer look

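The effect of time differed between the settings, by the test of the difference itself, for 613 loci. Named genes or list members whose called changes also ran in opposite directions were KIN2 (-1.55), COR15A (-1.84), FLS1 (-2.04), CHI (-1.74), 4CL3 (-1.56), UGT78D1 (-1.14), CYP79B2 (-1.11), CYP83B1 (-0.97), OPT3 (-1.76), NIR1 (-0.93) and XTH20 (-2.36), which rose toward evening in Lab LD and fell in LD+FR+TEMP. SOT12 (3.58) did the reverse. The values are interactions on the log2 scale. Groups of 3 libraries were too small for a formal test of single outlying samples, and fits without each library are given instead.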

How the results depend on the processing

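The direction of all 613 called interactions was kept wherever they were tested under the 20 alternatives. The number called was 536 with the replicate block, of which 515 were among the 613, 797 with all 24 libraries, 614 with RLE scaling, 881 with DESeq2, 619 with limma-trend, 715 without a filter, 648 at a mean of at least 5 CPM and 535 with the top transcript model. Without single libraries it ran from 347 to 831, from 158 to 446 for higher and from 186 to 385 for lower loci, and such fits also have fewer samples. Replicate numbers showed no clear pairing of the samples. Over 18 same-numbered pairs of libraries the correlation of deviations ran from -0.23 to 0.21, with a median of -0.01 and 4 pairs over 0.1. Pairs with different numbers had a median of 0.005 and reached 0.20. Of the libraries, 0 of 12 correlated best with their own number in every other group, a criterion too strict to exclude a weak pairing.

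Apart from HSP17.4 and AT2G04050, of 66 called genes named by the rule 40 kept their call under every alternative. Calls were lost 123 times in fits without a library and 26 times otherwise, and 9 were gained. Signs changed for genes that had not passed: CO with the top transcript model (0.27) and over the fits without a library (-0.70 to 0.15), CDF1 (-0.13 to 0.23) and PI (-0.039 to 1.05) over such fits, and HFR1 at a mean of at least 5 CPM (0.0048), with the top model (0.21) and over such fits (-0.33 to 0.42). Counts over gene lists, the count of reversals and shares of promoters moved in 116 cases and did not in 1004. A count was taken as moved if it changed by more than 1.5 times or between none and some. A share was taken as moved if it left the exact binomial interval around the share first given. The cause was not tested. TSF, with a highest group mean of 2 CPM, and HSP17.4, at 2 counts in a group, rest on few reads.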

Other observations

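Further loci among the 55 reversals were picked after their values were seen. RHM1, which makes UDP-rhamnose for flavonols, averaged 49 and 82.3 CPM at ZT4 and ZT16 in Lab LD and 137 and 58.9 CPM in LD+FR+TEMP (-1.97 ± 0.15, adjusted p = 1.05e-06). AT1G06000, annotated as a glycosyltransferase, averaged 49.4, 105, 149.6 and 81.2 CPM in the same order (-1.97 ± 0.25, adjusted p = 0.000224). CGA1, a GATA factor that promotes chloroplast development, averaged 9.14, 12.5, 26 and 11.8 CPM (-1.58 ± 0.17, adjusted p = 3.73e-05). All 3 rose toward evening in Lab LD and fell in LD+FR+TEMP.

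Of the 16 loci of the opposite kind, 3 are given here, also picked after their values were seen. MSS1, a monosaccharide transporter, averaged 13.7 and 5.38 CPM in Lab LD and 1.46 and 3.76 CPM in LD+FR+TEMP (2.71 ± 0.54, adjusted p = 0.00909). ERDL6, a vacuolar sugar exporter, averaged 40.5, 29.6, 23.2 and 30.7 CPM (0.86 ± 0.17, adjusted p = 0.00986). FBA5, an aldolase, averaged 144, 104, 76.2 and 102 CPM (0.90 ± 0.17, adjusted p = 0.00575). Each was lowest in LD+FR+TEMP at ZT4.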
